A study of Mus musculus with 16 samples.

Results

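The 10 imprinted growth genes Mest, Peg3, Dlk1, Meg3, H19, Ndn, Snrpn, Plagl1, Cdkn1c and Grb10 were followed on every array of a study of mouse cortical cells given the protein Klotho. The genes were taken by name, and all their probes were used: 21 of the 55681 probes on the array, or 10 of the 21368 genes that could be named. Astrocyte values by scanner file, by value table and by array row had been seen when the genes were chosen, so those 3 comparisons are given as descriptions without a test. The series holds 16 arrays with 1 dye, 4 in each of 4 groups, hybridised with total RNA from primary cultures of C57BL/6 mice. Neurons came from embryonic day 16 cortex and received, at day 14 in culture, either the vehicle 1xPBS or recombinant secreted Klotho at 1 nM for 24 h. Astrocytes received the same vehicle or the same Klotho dose for the same 24 h, and came from pups of postnatal days 0 to 5 according to the growth protocol, although their stage label reads E16. The flasks were shaken for 15 h to purify astrocytes to a stated purity above 98%. The labels do not say whether the 4 replicates of a group were separate cultures or animals. A p-value here sets the difference between groups against the spread of arrays within them, and that spread may be technical variation only.

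An imprinted gene is read mainly from the copy inherited from 1 parent, which is set by DNA methylation at control regions laid down in the germ line. Several paternally read genes promote fetal growth and several maternally read ones restrain it, and many of these genes are highest in the embryo and decline after birth. In the brain, imprinted genes are known for roles in neuronal survival, progenitor exit from the cell cycle and glial maturation.

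Upstream sequence is shown for the genes on which the results turn, with 1 line for each start shown. Mest has probes for 2 transcript records and is shown at both of its separate start regions. Each line gives the 250 bases before the start, 5′ to 3′ on the gene's strand, from the RefSeq promoter table of GRCm38.p6. Capitals mark the dinucleotide CG, the site of the methylation that sets an imprint; no methylation was measured here. The Mest lines cover chr6:30733256-30733505 and chr6:30737800-30738049 (plus strand), and Peg3 covers chr7:6730420-6730669 (minus strand). Dlk1 covers chr12:109452573-109452822, Meg3 covers chr12:109540746-109540995, and Ndn covers chr7:62348027-62348276, all on the plus strand.
Mest, upstream start: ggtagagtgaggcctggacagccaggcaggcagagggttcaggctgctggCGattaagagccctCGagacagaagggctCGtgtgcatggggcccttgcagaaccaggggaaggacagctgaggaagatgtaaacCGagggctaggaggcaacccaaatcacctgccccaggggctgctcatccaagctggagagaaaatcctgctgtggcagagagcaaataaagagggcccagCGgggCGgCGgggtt
Mest, downstream start: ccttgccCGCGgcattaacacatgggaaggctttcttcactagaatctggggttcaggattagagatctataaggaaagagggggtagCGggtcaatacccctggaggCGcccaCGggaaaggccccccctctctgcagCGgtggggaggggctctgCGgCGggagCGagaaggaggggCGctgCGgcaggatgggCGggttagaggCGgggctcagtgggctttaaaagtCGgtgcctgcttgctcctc
Peg3: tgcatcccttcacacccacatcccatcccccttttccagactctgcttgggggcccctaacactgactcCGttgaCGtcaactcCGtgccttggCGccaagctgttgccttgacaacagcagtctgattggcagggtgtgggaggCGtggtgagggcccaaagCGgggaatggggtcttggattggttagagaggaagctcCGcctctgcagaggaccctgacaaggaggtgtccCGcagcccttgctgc
Dlk1: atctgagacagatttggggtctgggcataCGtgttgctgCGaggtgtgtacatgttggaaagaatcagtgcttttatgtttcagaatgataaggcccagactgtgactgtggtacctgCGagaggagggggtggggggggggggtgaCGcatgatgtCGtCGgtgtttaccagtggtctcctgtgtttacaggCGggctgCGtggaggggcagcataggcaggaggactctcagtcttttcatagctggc
Meg3: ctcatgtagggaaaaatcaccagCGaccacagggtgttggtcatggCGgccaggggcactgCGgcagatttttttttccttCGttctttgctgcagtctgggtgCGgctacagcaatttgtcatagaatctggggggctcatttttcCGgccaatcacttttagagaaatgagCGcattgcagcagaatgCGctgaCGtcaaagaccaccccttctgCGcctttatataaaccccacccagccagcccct
Ndn: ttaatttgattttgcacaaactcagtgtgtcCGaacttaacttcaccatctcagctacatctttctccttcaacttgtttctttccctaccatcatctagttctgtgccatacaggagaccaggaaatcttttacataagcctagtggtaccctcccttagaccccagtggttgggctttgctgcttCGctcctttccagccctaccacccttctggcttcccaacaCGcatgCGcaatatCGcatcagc
The Mest starts hold 7 and 14 CG, Peg3 and Dlk1 hold 8 each, the Meg3 start shown holds 10 and Ndn holds 5. Of the members not shown, the Snrpn starts hold 2 to 4, the Plagl1 start 19 and the Grb10 starts 40 and 8. The median is 6 over 32851 such windows. Meg3 also has probes for 2 transcript records, and its other start, chr12:109545148-109545397, is not shown and holds 0 CG. The letters GGGGCCCC, a sequence that reads the same on both strands and is the described consensus of the Plagl1 zinc finger protein, were found in the Peg3 window only among the 15 windows of the 8 matched members. They occur in 0.889% of all windows. H19 and Cdkn1c had no entry.

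Levels below are log2 processed signal relative to the 75th percentile of the same array, so 0 is that percentile, and the brightest probe stands for a gene unless another is named. A level is compared only with the same probe on other arrays. On the 16 arrays, 34120 to 39934 spots were well above background, and none of the member probes was saturated. Summed marker levels went with the labelled cell types. The linear sum of 12 neuron markers was 425 to 550 on neuron vehicle arrays and 30.1 to 102 on astrocyte vehicle arrays (7 to 9 of 12 above background). The sum of 12 astrocyte markers was 162 to 243 on neuron vehicle arrays (11 to 12 of 12 above background) and 337 to 563 on astrocyte vehicle arrays. With limma and an adjusted p under 0.05, 9 of these 12 were called higher in vehicle-treated astrocytes and 1 lower. Of all probes, 21.8% were called higher and 30.3% lower. All 12 microglia markers were above background on every astrocyte array, where they summed to 131 to 269, against 34.9 to 44.8 in neurons. Meningeal fibroblast markers summed to 188 to 492 in astrocytes and 34.4 to 55.1 in neurons, and these sums are weighted to bright genes such as Igfbp2. Of 11 such markers tested in vehicle cultures, 7 were called higher in astrocytes and 2 lower. All 12 oligodendrocyte lineage markers were above background on every neuron array. They summed to 91.9 to 157 there and to 39.4 to 132 in astrocytes, with overlap. In such bulk RNA, fewer cells of a type and less RNA per cell cannot be told apart.

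Assignment of the astrocyte arrays to treatments differs between the deposited sources. The value table's columns match their own sample's array in 10 of 16 cases, and the other 6, all astrocyte columns, match another astrocyte array. For 4 arrays the treatment itself differs: astrocyte vehicle 2 and 4 and astrocyte Klotho 1 and 3 by scanner file. By scanner file all vehicle arrays lie on slide 2 and all Klotho arrays on slide 3, and by value table all vehicle arrays lie in column 3 and all Klotho arrays in column 4. Groups below follow the scanner files unless the value table is named.

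**Figure D1:**
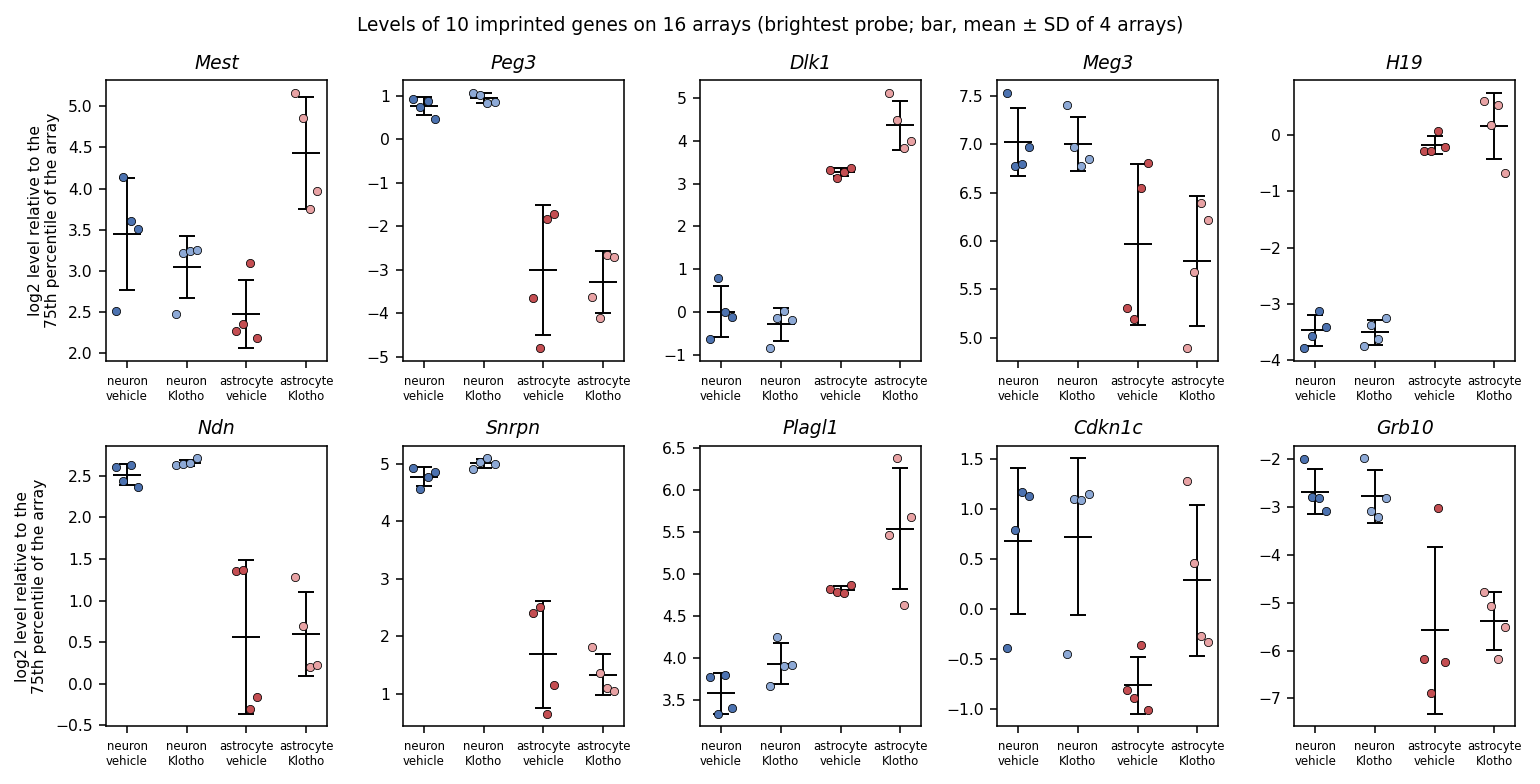
Level of each gene (y axis, log2 relative to the array's 75th percentile, a separate scale for each gene) in the 4 groups, with 1 point for each array and the mean ± SD of 4 arrays as bars. Dlk1, H19 and Plagl1 sit higher in astrocytes than in neurons, Peg3, Ndn and Snrpn sit lower, and Mest is split within the astrocytes, at 2.47 ± 0.42 in vehicle and 4.44 ± 0.68 in Klotho cultures.

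Most of the 10 genes differed in level between astrocytes and neurons. Dlk1, H19 and Plagl1 were higher in vehicle-treated astrocytes than in vehicle-treated neurons, while Peg3, Snrpn, Ndn and Cdkn1c were lower, as was Grb10 where its signal was mostly at background. With limma and an adjusted p under 0.05, 8 of the 10 genes passed, 3 higher and 5 lower, while 52.2% of the 36064 probes tested passed, 21.8% higher and 30.3% lower. The 5 lower genes include Grb10, which was above background on 1 of 4 astrocyte arrays; over the 9 genes above background on every compared array, 7 passed. The 2 groups did not overlap for 6 of the 10 genes, 3 in each direction, against 53.6% of all probes (22.2% higher and 31.5% lower). The median log2 difference was -1.25 over the 10 genes and -0.22 over all probes. Cell type coincides with slide and, by the growth protocol, with donor age and culture method, so these effects cannot be told apart. All neuron vehicle arrays lie in row 1 of their slide and all neuron Klotho arrays in row 2. Each astrocyte group is split evenly between the rows. The part of row in the differences between cell types was not tested. Both paternally read genes (Dlk1, Plagl1) and a maternally read one (H19) were on the higher side, and both kinds were on the lower side.

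Dlk1 encodes a membrane protein related to the Notch ligands that is shed from progenitors and glia. Neuron vehicle arrays gave levels of -0.63, 0.80, 0.00 and -0.12, and astrocyte vehicle arrays gave 3.31, 3.14, 3.28 and 3.36. The groups did not overlap, and the astrocyte arrays lay close together. The difference of 3.26 ± 0.29 (log2, standard error), 9.57-fold, had an adjusted p of 1.82e-05 in limma. Dlk1's second probe gave 3.09.

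H19 is a maternally read long noncoding RNA that lies beside the growth factor gene Igf2. Its levels were -3.79, -3.57, -3.12 and -3.41 in neuron vehicle cultures and -0.28, -0.28, 0.07 and -0.22 in astrocyte vehicle cultures. All astrocyte arrays were above all neuron arrays, by 3.29 ± 0.21 or 9.79-fold, with a limma adjusted p of 2.13e-06. Igf2, singled out after its values were seen, was above background on 1 of 4 astrocyte vehicle arrays and 0 of 4 neuron vehicle arrays, so it was not tested. The gene table places 2 genes between H19 and Igf2, 0 of them protein coding.

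Plagl1 encodes a zinc finger transcription factor that can arrest the cell cycle and acts on other imprinted genes. Its levels were 3.78, 3.34, 3.80 and 3.41 in neuron vehicle cultures and 4.82, 4.79, 4.78 and 4.87 in astrocyte vehicle cultures. The groups did not overlap, and the difference was 1.23 ± 0.19, 2.35-fold, at a limma adjusted p of 0.000523. All 4 Plagl1 probes were higher in astrocytes, by 0.52 to 1.26, and 3 of them passed. The exception was probe A_55_P2153251, at 0.52 and an adjusted p of 0.102.

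Peg3 encodes a zinc finger protein and is read from the paternal copy. Levels of 0.92, 0.75, 0.88 and 0.47 in neuron vehicle cultures stood against -3.64, -4.80, -1.84 and -1.72 in astrocyte vehicle cultures. No astrocyte array reached any neuron array. The astrocyte arrays fell into a low pair from row 1 and a high pair from row 2, while the neuron arrays all lie in row 1. The difference was -3.76 ± 0.64, or 13.5-fold lower, with a limma adjusted p of 0.00107, and it was -3.16 without astrocyte vehicle 2. The second probe was above background on 2 of 4 astrocyte arrays, so no size is given for it.

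Snrpn and Ndn lie in the same imprinted region, with 34 genes between them in the gene table, 1 of them protein coding. Snrpn encodes a splicing protein that is abundant in neurons. Its levels were 4.92, 4.56, 4.76 and 4.86 in neuron vehicle cultures and 2.41, 2.52, 0.66 and 1.16 in astrocyte vehicle cultures. The neuron arrays were tight and the astrocyte arrays spread, without overlap, and the difference was -3.09 ± 0.42, 8.52-fold lower, at a limma adjusted p of 0.000251. All 3 Snrpn probes passed, at -3.63 to -2.67. Ndn, which encodes necdin, a protein of postmitotic neurons, read 2.61, 2.44, 2.63 and 2.37 in neuron vehicle cultures and 1.35, 1.37, -0.31 and -0.16 in astrocyte vehicle cultures. Again every astrocyte array was below every neuron array, by 1.95 ± 0.41 as a mean (3.86-fold lower, limma adjusted p 0.0038).

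Cdkn1c and Grb10 are growth restraints, the former a cyclin-dependent kinase inhibitor and the latter an adaptor that dampens insulin and IGF receptor signalling. Cdkn1c read -0.39, 0.79, 1.17 and 1.13 in neuron vehicle cultures and -0.81, -0.89, -0.36 and -1.01 in astrocyte vehicle cultures. Astrocyte vehicle 3 lay just above neuron vehicle 1, and the other arrays were separate. The difference was -1.44 ± 0.36, 2.72-fold lower, at a limma adjusted p of 0.0087. With the astrocyte arrays grouped by value table it was -0.72 at an adjusted p of 0.251, and with the 2 undisputed astrocyte arrays -1.26 at 0.0678. Grb10 read -2.00, -2.79, -2.81 and -3.09 in neuron vehicle cultures and -6.18, -6.89, -3.01 and -6.23 in astrocyte vehicle cultures, where it was above background on 1 of 4 arrays, replicate 3. That single array lay among the neuron arrays. Grb10 entered the fit through the neuron arrays alone, so its size against a group mostly at background is not well set. The fit gave -2.90 ± 0.76 (limma adjusted p 0.0109), -3.76 without astrocyte vehicle 3, -1.30 after normexp background correction, and -1.92 at an adjusted p of 0.0892 with the 2 undisputed astrocyte arrays. After normexp, Peg3 was at -3.13 and H19 at 2.65, both still past the threshold.

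Mest and Meg3 did not pass in the vehicle cultures. Mest, a paternally read gene for a hydrolase-fold protein of the embryo, read 2.51, 4.14, 3.61 and 3.51 in neuron vehicle cultures and 2.27, 2.35, 3.09 and 2.19 in astrocyte vehicle cultures. The groups overlapped through neuron vehicle 1, and the difference was -0.97 ± 0.37 at a limma adjusted p of 0.0511. Without neuron vehicle 1 the difference was -1.28 (adjusted p 0.00888), and without astrocyte vehicle 3 it was -1.18 (adjusted p 0.0273). With the astrocyte arrays grouped by value table it was 0.13 ± 0.58 (adjusted p 0.871), in the opposite direction.

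Meg3 is a maternally read long noncoding RNA of the Dlk1 domain, and the gene table places 2 genes between Dlk1 and Meg3, 0 of them protein coding. Its brightest probe read 7.53, 6.78, 6.80 and 6.97 in neuron vehicle cultures and 5.31, 5.19, 6.55 and 6.81 in astrocyte vehicle cultures. Astrocyte vehicle 4 reached the lowest neuron arrays, and the difference was -1.05 ± 0.40 at a limma adjusted p of 0.0547. It was -1.25 (adjusted p 0.0369) without astrocyte vehicle 3 and -1.33 (adjusted p 0.0194) without astrocyte vehicle 4. Scaling to the median gave -1.02 (adjusted p 0.0192), normexp -1.12 (adjusted p 0.0371), quantile normalization -0.46 (adjusted p 0.476) and grouping by value table -1.23 (adjusted p 0.0238). The 3 Meg3 probes differed widely in size though not in direction. Probe A_55_P2033407 was lower in astrocytes by 1.66 ± 0.40 (adjusted p 0.00771), and probe A_52_P196568 was lower by 5.06 ± 0.63, or 33.3-fold (adjusted p 0.000144). Dlk1 was thus higher in astrocytes, while the 3 Meg3 probes of the same domain had negative differences, 2 of which passed.

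In the Klotho-treated cultures, arrays that share no sample with the vehicle comparison gave 9 of 10 genes past the limma threshold, 4 higher and 5 lower. Among the 33068 probes tested, 63.6% passed, 27.6% higher and 36% lower. The groups did not overlap for 9 of the 10 genes, 4 higher and 5 lower, against 59.3% of all probes (25.7% higher and 33.5% lower). Dlk1 was 4.64 ± 0.31 higher in astrocytes (24.9-fold, adjusted p 8.72e-07), H19 was 3.67 ± 0.29 higher (adjusted p 2.71e-06), and Plagl1 was 1.61 ± 0.33 higher (adjusted p 0.00209). Snrpn was -3.67 ± 0.20 against neurons (adjusted p 2.7e-07), Peg3 -4.22 ± 0.32 (adjusted p 2.08e-06), and Ndn -2.06 ± 0.25 (adjusted p 6.09e-05). These 6 genes had the same direction as in vehicle cultures.

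Meg3's brightest probe was lower in Klotho-treated astrocytes by 1.21 ± 0.32 (limma adjusted p 0.00872), but with quantile normalization by 0.72 at an adjusted p of 0.191. Its probe A_52_P196568 was again the one with the widest gap, at -5.18 ± 0.53 (36.4-fold). Grb10, above background on 3 of 4 Klotho-treated astrocyte arrays, again entered the fit through the neuron arrays; the fit gave -2.60 ± 0.36 (adjusted p 0.00014) and, after normexp, -1.24 (adjusted p 0.0016). Over the 9 genes above background on every compared array, 8 passed. Cdkn1c did not pass, at -0.44 ± 0.45 and an adjusted p of 0.42, and with the astrocyte arrays grouped by value table it was -1.16 at 0.0469.

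Grouped by scanner file, Mest was the 1 member whose difference between cell types had opposite signs in the 2 comparisons. In Klotho cultures it read 2.48, 3.22, 3.24 and 3.25 on neuron arrays and 5.16, 4.86, 3.75 and 3.97 on astrocyte arrays. All astrocyte arrays were above all neuron arrays, and the difference was 1.39 ± 0.34, or 2.61-fold higher (limma adjusted p 0.00545). Of the other Mest probes, A_55_P2151868 did not pass, at 0.32 and an adjusted p of 0.158. By value table the brightest Mest probe was at 0.29 ± 0.57 in Klotho cultures (limma adjusted p 0.681) and at 0.13 in vehicle cultures. The 2 signs were then the same. The change of sign by scanner file was not tested, because it includes the astrocyte contrast that was known when the genes were chosen.

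**Figure D2:**
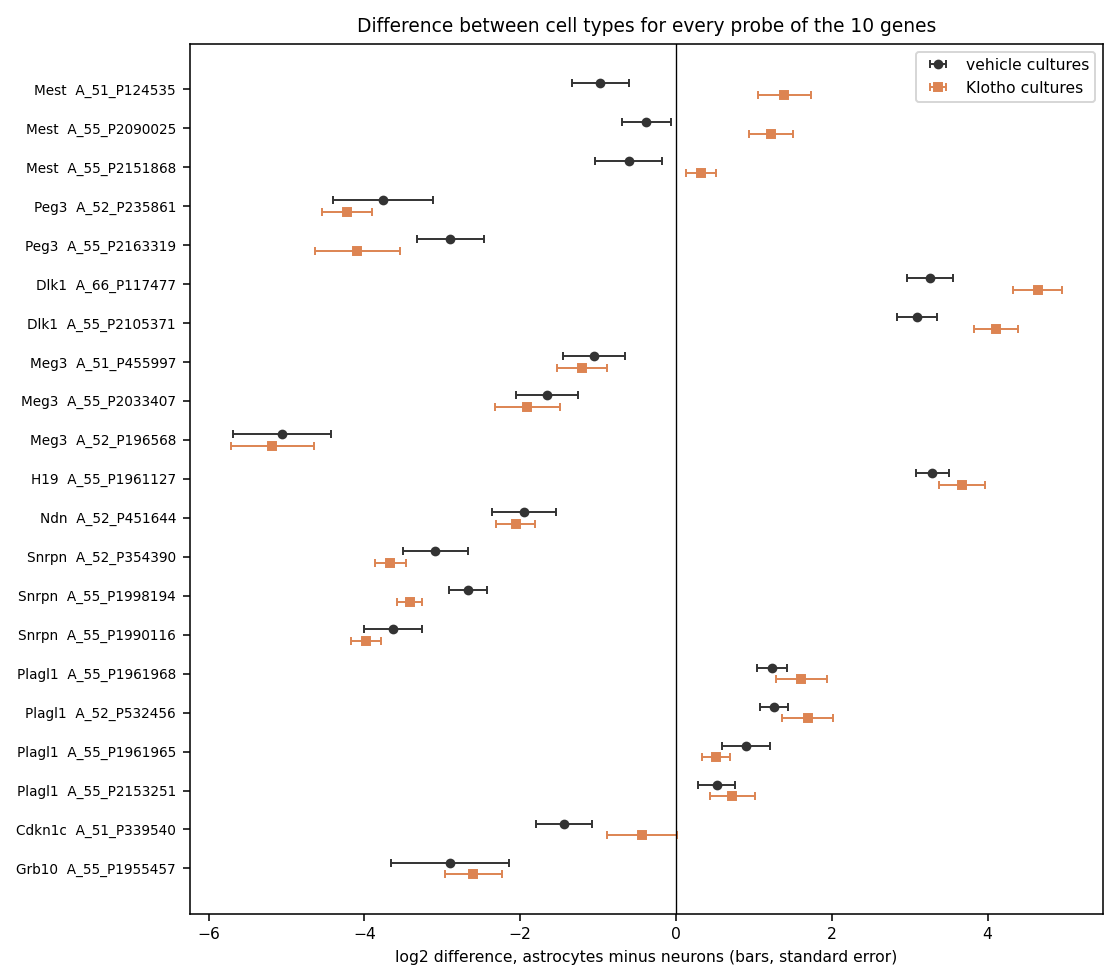
Difference between astrocytes and neurons (x axis, log2, astrocytes minus neurons, bars showing the standard error) for all 21 probes in vehicle cultures (circles) and Klotho cultures (squares). Mest lies on opposite sides of 0 in the 2 comparisons, and the Meg3 probe A_52_P196568, at -5.06 and -5.18, lies far from the other 2 Meg3 probes.

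Lists of related genes, also drawn up with earlier results known, were compared in the vehicle cultures, where 21.8% of all probes were called higher and 30.3% lower; the lists' counts are to be read against those shares. Of 28 neighbours of the members in their imprinted clusters, 21 were tested, and 4 were higher and 10 lower in astrocytes. Usp29, with 1 gene between it and Peg3 in the gene table, was not well above background on any astrocyte vehicle array and was at least 731-fold lower there, and Zim1 of the same cluster was at least 19.5-fold lower. For such a bound, the dim group was set on each array at the higher of its own signal and the lowest signal well above background. Magel2, a MAGE-family gene adjacent to Ndn, was lower by 5.34 ± 0.25 (limma adjusted p 4.09e-07), and Slc22a18 near Cdkn1c was 4.90 ± 0.24 higher (adjusted p 5.21e-07). The list's median difference was -0.49, against -0.22 over all probes.

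Of 31 other imprinted genes, 29 were tested and 5 were higher and 13 lower in vehicle-treated astrocytes, with a median of -0.90. Pon3, a lactonase gene, was 6.70 ± 0.36 higher, and Nnat, a small membrane protein of developing neurons, was lower by 4.81 ± 0.30. Zdbf2 was not well above background on any astrocyte vehicle array and at least 22.2-fold lower. Among 15 genes that maintain or remove imprints, 14 were tested, 0 were higher and 4 lower: the methyltransferases Dnmt3a (-2.05) and Dnmt1 (-1.07), the dioxygenase Tet1 (-2.93) and the corepressor Trim28 (-0.95). Of 24 partners in growth signalling, 11 were higher and 4 lower, with a median of 0.73. Igf1 was 3.33 ± 0.22 higher, and the binding proteins Igfbp2 and Igfbp5 were 2.88 ± 0.28 and 3.03 ± 0.31 higher in astrocytes, whereas Adcyap1r1, which encodes a receptor for the neuropeptide PACAP, was lower by 4.71 ± 0.23. Igfbp2 is also on the list of meningeal fibroblast markers, whose summed level was higher in astrocyte cultures. That sum includes Igfbp2 itself, at a log2 level of 7.24 in astrocyte and 4.36 in neuron vehicle cultures, so the 2 are not separate observations. The part of other cells in these differences was not tested.

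In neurons, levels with Klotho and with vehicle were close for most members. With limma, 0 of the 10 genes and 0 of their 21 probes passed, each at an adjusted p of 0.999, and 2 probes had an unadjusted p under 0.05. Over all 34073 probes tested, 0.12% passed (41, all lower), and 1379 had an unadjusted p under 0.05. With the replicate number as a block 25 probes passed, 0 of them a member's. Treatment coincides with array row in neurons, so the effects of Klotho and row cannot be told apart.

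Ndn was the only member whose brightest probe did not overlap between the neuron groups. Its levels were 2.61, 2.44, 2.63 and 2.37 with vehicle and 2.63, 2.64, 2.65 and 2.71 with Klotho. The lowest Klotho array lay just above the highest vehicle array, and the difference was 0.14 ± 0.10. Groups did not overlap for 4.04% of all probes tested, 1.41% in the higher direction and 2.62% in the lower. Plagl1 was 0.35 ± 0.16 higher with Klotho, with 3 of 4 Klotho arrays above all vehicle arrays. Its 4 probes lay at 0.18 to 0.35, and probe A_55_P1961965 did not overlap between groups, at 0.24 ± 0.10. Snrpn was 0.23 ± 0.11 higher by its brightest probe, with 3 of 4 Klotho arrays above all vehicle arrays, but its probe A_55_P1990116 was at -0.13.

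The other differences in neurons were -0.39 ± 0.34 for Mest, -0.30 ± 0.31 for Dlk1, 0.18 ± 0.13 for Peg3 and -0.10 ± 0.31 for Grb10. Meg3 (-0.02 ± 0.21), H19 (-0.03 ± 0.17) and Cdkn1c (0.05 ± 0.46) had differences far under their standard errors, and the 3 Meg3 probes lay at -0.07 to 0.04. None of the 21 tested cluster neighbours, 27 other imprinted genes, 14 imprint maintenance genes or 23 growth signalling partners passed either (0 in each list by limma).

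Several members differed more between replicate numbers than between treatments in neurons. The replicate 1 arrays of both treatments stood apart from the other 6 neuron arrays, without overlap, for 6 of the 10 genes (60%), and for 57% of 30008 probes above background on all neuron arrays. Cdkn1c read -0.39 and -0.45 on the replicate 1 arrays and 0.79 to 1.17 on the other 6, a difference of -1.50. Mest read 2.51 and 2.48 against 3.22 to 4.14, a difference of -1.00. Dlk1 was lower there by 0.80 and H19 by 0.38. In the opposite direction, Grb10 was 0.97 higher and Meg3 0.61 higher on the replicate 1 arrays. Peg3, Ndn, Snrpn and Plagl1 overlapped. Without these 2 arrays 0 members passed in the comparison of Klotho with vehicle.

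**Figure D3:**
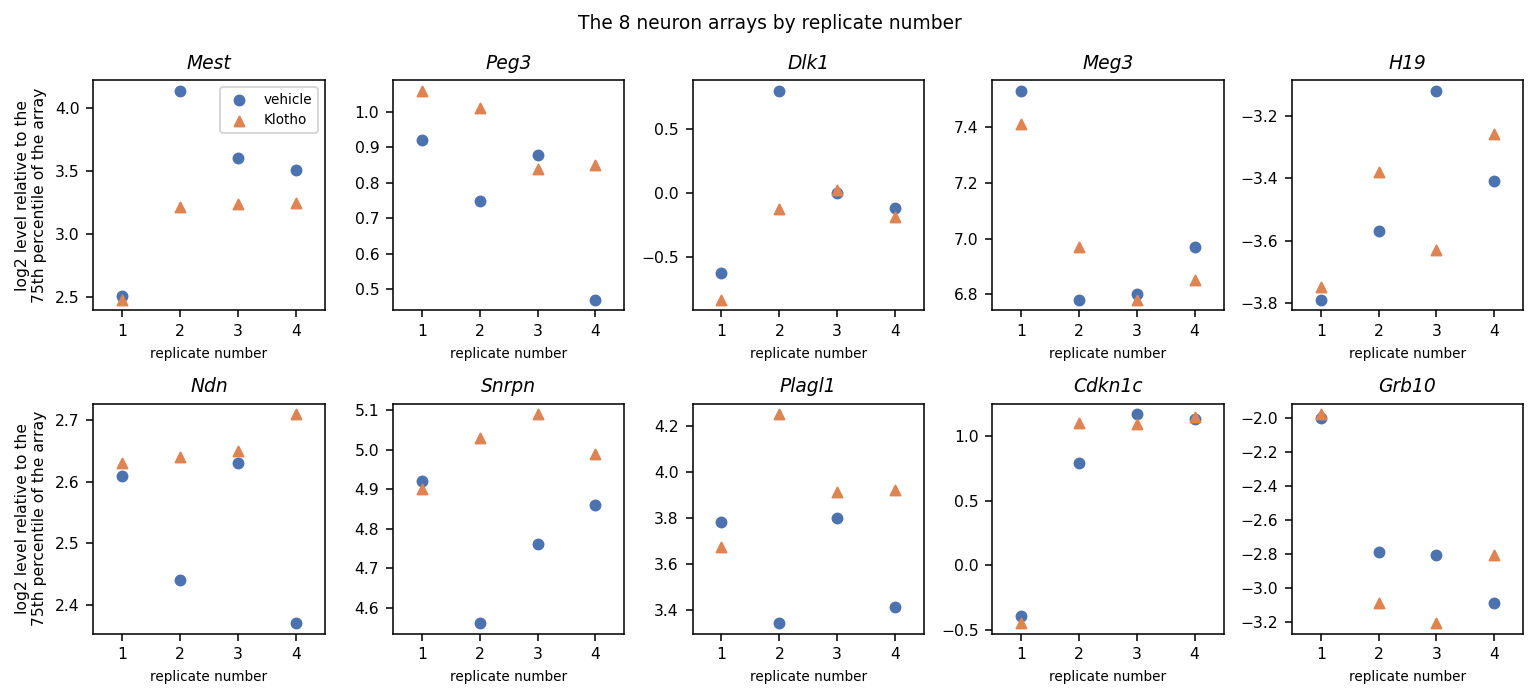
Level of each gene (y axis, log2 relative to the array's 75th percentile) on the 8 neuron arrays by replicate number, for vehicle (circles) and Klotho (triangles). On both replicate 1 arrays Cdkn1c lies at -0.39 and -0.45, below the 0.79 to 1.17 of the others, and Grb10 and Meg3 lie above the others.

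In astrocytes grouped by scanner file, Mest, Dlk1 and Cdkn1c had higher levels with Klotho than with vehicle, without overlap between the groups, and these values helped choose the genes. Mest read 2.27, 2.35, 3.09 and 2.19 with vehicle and 5.16, 4.86, 3.75 and 3.97 with Klotho. Every Klotho array was above every vehicle array, and the difference was 1.96 ± 0.37 on the log2 scale, 3.90-fold. The 3 Mest probes lay at 0.91 to 1.96. Probe A_55_P2151868 overlapped between the groups, at -2.32 to -0.41 with vehicle and -0.91 to -0.27 with Klotho. Dlk1 read 3.31, 3.14, 3.28 and 3.36 with vehicle and 5.11, 4.49, 3.83 and 4.00 with Klotho, a difference of 1.09 ± 0.29. Cdkn1c read -0.81, -0.89, -0.36 and -1.01 with vehicle and 1.28, 0.46, -0.27 and -0.33 with Klotho. The gap between the Cdkn1c groups was narrow, and the difference was 1.06 ± 0.37.

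Of the other members, Plagl1 differed by 0.73 ± 0.34, with 3 Klotho arrays above and 1 below all vehicle arrays. Its 4 probes did not share a sign, at -0.14 to 0.73. H19 was at 0.34 ± 0.30, Ndn at 0.04 ± 0.47, Meg3 at -0.17 ± 0.47, Peg3 at -0.28 ± 0.70 and Snrpn at -0.35 ± 0.44. Grb10 was above background on 1 of 4 vehicle and 3 of 4 Klotho arrays and was outside the probes fitted. The background was 0 of 32155 probes called (0% by limma, 1137 at an unadjusted p under 0.05), and 2.48% of probes did not overlap between groups, 0.992% in the higher direction and 1.49% in the lower.

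Slide and treatment are the same split by scanner file, and other gene sets had higher levels on the Klotho side as means, though not on every array. The 12 response genes of the inflammatory factor NF-kappaB summed to 95.4, 104, 19.9 and 20.6 on the 4 vehicle arrays and to 532, 1398, 44.3 and 1069 on the 4 Klotho arrays, and all 12 had higher means with Klotho, at a median log2 difference of 4.49, with 0 of them past the limma threshold. Meningeal fibroblast markers summed to 234, 209, 188 and 265 with vehicle and to 492, 354, 251 and 306 with Klotho, with 10 to 12 of 13 above background. The mean log2 level of the NF-kappaB genes was -2.21 to 0.03 with vehicle and -0.28 to 5.83 with Klotho. That of the fibroblast markers was -0.50 to -0.22 and -0.14 to 0.47. The NF-kappaB sum of astrocyte Klotho 3 lay below those of astrocyte vehicle 1 and 2. All 12 NF-kappaB genes also had higher means with Klotho by value table, at a median log2 difference of 2.21. By row, all 12 were lower in row 2 than in row 1, at a median of -1.88. The part of either set in the values of Mest, Dlk1 and Cdkn1c was not tested.

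By value table the same 3 genes had no separation. Vehicle then comprised Mest levels of 2.27, 3.09, 5.16 and 3.75, and Klotho 2.35, 2.19, 4.86 and 3.97. Each group held 2 low arrays from slide 2 and 2 high arrays from slide 3, and the difference was -0.23 ± 0.75. Dlk1 was at -0.13 ± 0.47 and Cdkn1c at -0.40 ± 0.50. The 3 Snrpn probes lay at -0.10 to 0.03. Plagl1 was at 0.51 ± 0.39, with the same sign as by scanner file, and H19 was at -0.48 ± 0.28, with the opposite sign. The groups overlapped for all 10 genes, and 0 of 32238 probes were called (0% by limma, 755 at an unadjusted p under 0.05), with 1.63% not overlapping (0.568% higher and 1.06% lower). On the 4 arrays whose treatment is the same in both sources, Mest differed by 1.73 ± 0.55, Plagl1 by 1.23 ± 0.45, Dlk1 by 0.95 ± 0.42 and Cdkn1c by 0.65 ± 0.48, and those arrays also lie on slide 2 for vehicle and slide 3 for Klotho.

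By the row of an array on its slide, 4 of the 9 genes fitted did not overlap, against 42.4% of all probes (20% higher and 22.4% lower), so row separation was about as common in these genes as over the array. Peg3 read -3.64, -4.80, -3.62 and -4.11 on the 4 astrocyte arrays of row 1 and -1.84, -1.72, -2.66 and -2.71 on the 4 of row 2. All row 2 arrays were higher, by 1.81 ± 0.34 with treatment by scanner file as covariate. The second Peg3 probe was above background on 0 of 4 row 1 arrays and 4 of 4 row 2 arrays, and was at least 1.89-fold higher in row 2. Meg3 read 5.31, 5.19, 4.89 and 5.68 in row 1 and 6.55, 6.81, 6.39 and 6.22 in row 2, a difference of 1.23 ± 0.21 without overlap. Its 3 probes lay at 1.23 to 2.11.

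Ndn and Snrpn went the other way. Ndn read 1.35, 1.37, 1.28 and 0.69 in row 1 and -0.31, -0.16, 0.20 and 0.23 in row 2, a difference of -1.19 ± 0.22. Snrpn read 2.41, 2.52, 1.82 and 1.37 in row 1 and 0.66, 1.16, 1.10 and 1.05 in row 2, a difference of -1.04 ± 0.25. Neither gene's brightest probe overlapped between rows, while Snrpn probe A_55_P1998194, at -0.41, did overlap. Mest (-0.41), Dlk1 (-0.40), Cdkn1c (-0.50), Plagl1 (-0.37) and H19 (-0.12) overlapped, and within slide 2 these 5 differences were positive, at 0.02 to 0.33; with quantile normalization those of Dlk1 and Plagl1 were positive too. The probes of 2 of these genes had opposite signs by row: the 3 Mest probes lay at -0.43 to 0.55 and the 4 Plagl1 probes at -0.37 to 0.69. Plagl1 probe A_55_P1961965 was the one at 0.69, and all its row 2 arrays were above its row 1 arrays.

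Rows hold both treatments equally under either assignment, and row separated many probes: 48% of 33036 probes were called by limma, 24.1% higher and 23.9% lower. Scaling to the median moved the median of all probes by row from 0.01 to -0.43 and turned the calls to 4242 higher and 12134 lower, and after normexp background correction they were 5053 higher and 7881 lower. The 4 members kept their signs under every scaling, at 0.79 to 1.75 for Meg3, 1.11 to 2.45 for Peg3, -1.62 to -0.78 for Ndn and -1.56 to -0.52 for Snrpn over the alternatives on the log2 signal scale, leaving out 1 array aside. Within slide 2 the differences by row were 2.45 for Peg3 and -1.59 for Ndn, and within slide 3 they were 1.17 and -0.78. Summed marker levels differed by row too, without overlap. Those of neurons were 30.1 to 49.5 in row 1 and 52.5 to 102 in row 2, those of microglia 131 to 178 and 195 to 269, and those of oligodendrocytes 39.4 to 87.5 and 88.5 to 132. Astrocyte markers summed to 473 to 563 in row 1 and 337 to 446 in row 2, and endothelial and mural cell markers to 220 to 313 and 84.2 to 164. A sum is weighted to the brightest genes, and the mean log2 levels of these 5 lists overlapped between rows. Those means were -3.29 to -2.37 and -2.95 to -2.46 for neuron markers, 2.46 to 3.33 and 2.98 to 3.45 for microglia, and -2.23 to -1.96 and -2.23 to -1.97 for endothelial and mural cells. Neural progenitor and cell cycle genes overlapped between rows by sum but not by mean log2 level. Their means were 1.99 to 2.32 in row 1 and 1.69 to 1.98 in row 2. The part of these lists in the row differences was not tested.

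**Figure D4:**
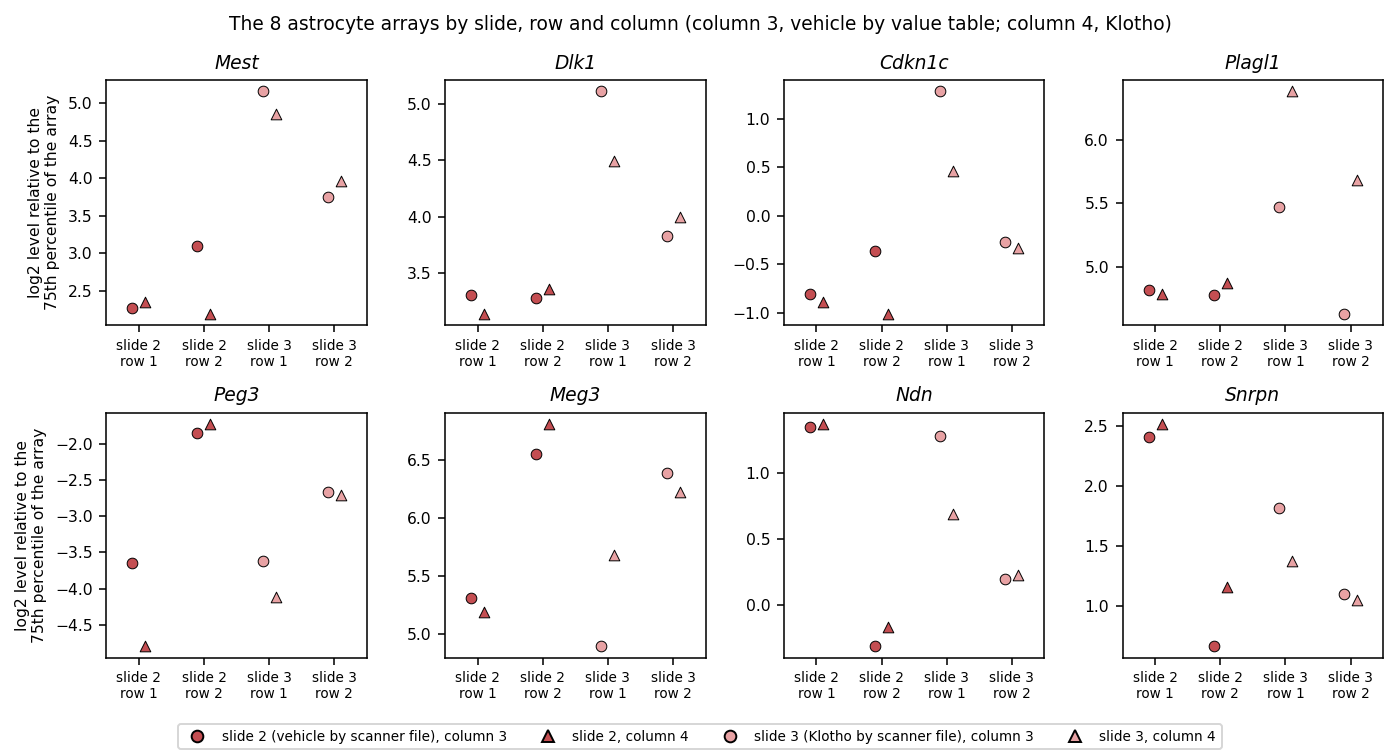
Levels of 8 members (y axis, log2 relative to the array's 75th percentile) on the 8 astrocyte arrays by slide and row, with circles for column 3 and triangles for column 4. Mest, Dlk1 and Cdkn1c are higher on slide 3 than on slide 2 in both columns, and Peg3, Meg3, Ndn and Snrpn separate by row on both slides.

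Across the 8 astrocyte arrays, members fell into sets that varied together, as a description of arrays that share slides, rows and treatments. Mest and Dlk1 correlated with r = 0.94, Mest and Cdkn1c with r = 0.94, and Dlk1 and Cdkn1c with r = 0.95. Ndn and Snrpn had r = 0.93, Meg3 and Peg3 had r = 0.87, and Meg3 and Ndn had r = -0.97. Across the 8 neuron arrays Mest and Dlk1 again had r = 0.95, whereas Dlk1 and Meg3 had r = -0.81 there and -0.40 in astrocytes. The replicate 1 arrays carry much of the neuron spread.

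Among 14699 named genes above background in astrocytes, those whose levels over the 8 arrays were most like Mest were H2-Ab1 (r = 0.989), Arsa (0.969) and Glycam1 (0.968). For Dlk1 they were Mfap4 (0.992), Glycam1 (0.988) and Tyrp1 (0.984), for Ndn Mrps18a (0.999), and for Meg3 Kmt2b (0.997). Among 14590 genes in neurons, the most like Mest was Sulf1 (0.994), the most like Dlk1 were Hnrnpf and Vim (0.992 each), and the most like Cdkn1c was Birc7 (0.999). Each is the highest of many correlations over only 8 arrays that split by slide, row or replicate number. High values are therefore a description and do not tie these genes to the members.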

How the data were processed

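The scanner files, per the file headers, come from Agilent Feature Extraction 12.0.3.1 (protocol GE1_1200_Jun14, design 028005, build mm9). The signal used is its processed signal, a linear intensity as deposited by the authors, with a flag per spot for signal well above background. The scores in the value table are as deposited; how the authors made them is not given in the sources used here, and each column lay within 0.005 of a z-score of some array's log2 signal. Spots of a probe were averaged, and log2 intensity was centred on each array's 75th percentile. Of 55681 probes, 28331 (50.9%) were named by RefSeq accession through a GRCm38.p6 gene table. Probes that were well above background throughout 1 or more of the groups compared were tested with limma 3.58.1 (R 4.3.3; Python 3.11.15), with Benjamini-Hochberg adjustment over all of them and a threshold of 0.05. The fitting was tested on simulated data.

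Members, gene lists and comparisons were chosen with earlier results of these data known. Members are given by their brightest probe, with the other probes where they differ in sign or call, and the genes named from other lists are those with the smallest p-values between vehicle cultures. Deviations of same-numbered neuron samples correlated at 0.201 to 0.806, but only numbers 1 and 4 correlated best with their own number. For astrocyte samples by scanner file the range was 0.188 to 0.756, and number 2 did not correlate best with its own. The numbers come from the sample titles and follow slide position. Between cell types the range was -0.176 to 0.307 in vehicle cultures, where numbers 1, 2 and 4 correlated best with their own. In Klotho cultures it was -0.141 to 0.007, and no number did so. Astrocytes by value table also had no number that correlated best with its own. Normexp (offset 50) used the median spot signal, since the files hold no mean signal column. Alternatives covered scaling, filters, the replicate block, array assignment and leaving out arrays; assignment between cell types and the joint removal of replicate 1 were added after seeing the data. The number of arrays limits precision.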

Additional observations from a re-analysis of the deposited data

Results flagged for a closer look

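On 2 of the 84 sets of 4 arrays examined (21 probes in 4 groups), 1 array lay far from the other 3, and chance flags about 1 in 20 such sets. Mest on the neuron Klotho replicate 1 array read 2.48 against 3.22 to 3.25 on the other 3, a gap of 0.961 of the group's range. Cdkn1c on the same array read -0.45 against 1.09 to 1.15, a gap of 0.968 of the range. The neuron vehicle replicate 1 array was also the lowest of its group for both genes.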

How the results depend on the processing

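In neurons 0 members passed under every alternative, while the count over all probes was 41 lower in the comparison as reported, 69 lower in the value table, 25 lower with the replicate block, 15 lower without the replicate 1 arrays, 6 lower with normexp, 3 lower with a filter on every array, 19 to 60 lower without 1 array (with 2 higher without neuron Klotho 2 and 3 higher without neuron Klotho 4), and 7501 higher and 260 lower with no filter. Between cell types, 8 members passed in vehicle cultures and 9 in Klotho cultures as reported. Over all alternatives 6 to 10 and 8 to 9 passed, and leaving out 1 array gave 8 to 10 and 9. As reported, 52.2% and 63.6% of all probes passed, and their shares under the alternatives are not given here. The counts therefore do not set the members apart. With the replicate number as a block the counts were 0 in neurons, 9 in vehicle and 9 in Klotho cultures, Mest in vehicle cultures passed (adjusted p 0.0488), and the astrocyte median by scanner file stayed at 0.34. The block changed no other member's call. The fit of all 16 arrays passed Mest (adjusted p 0.0359) and Meg3 (0.0289) in vehicle cultures. Leaving out 1 array, the median over 9 members ranged from 0.20 to 0.62 by scanner file, from -0.34 to 0.12 by value table and from -0.53 to -0.20 by row. By row it was -0.40 as reported, -0.84 with scaling to the median, -0.01 with quantile normalization, 0.16 within slide 2 and -0.77 within slide 3; the cause was not tested. Over all probes limma called 0 by row within slide 3 (6761 at an unadjusted p under 0.05), and 4908 higher and 5289 lower without astrocyte vehicle 1. Against 0 by scanner file, it called 17 higher and 1 lower without astrocyte Klotho 3, 1 higher without astrocyte vehicle 3 and 2 higher on the undisputed arrays. Grb10 and the second Peg3 probe were limited by signal over background in astrocytes.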
